A study of Mus musculus with 6 samples.

Results

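The genes described here are 9 genes used to recognise tuft cells, Rgs13, Trpm5, Gnat3, Pou2f3, Sh2d6, Sucnr1, Dclk1, Avil and Chat. They were chosen by name, and all 9 were found among the 35434 gene symbols of the table. RNA of the large intestine was sequenced in 6 libraries, 3 titled int 3 and 3 titled int 2. The series compared mice with inflammatory bowel disease that had received regulatory T cells (Tregs) treated with lenvatinib, an inhibitor of several receptor tyrosine kinases, or control Tregs. Which transfer each number denotes is not in the labels. A log2 change here is int 3 minus int 2, and no treatment is named. What all 6 samples share is the tissue and, per the series text, the disease and a Treg transfer. Strain, genotype, sex, age, the way the disease was induced and whether animals were pooled are not given in the sources used here. No label ties the libraries to separate animals, and p-values then cover only the spread between these libraries.

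Tuft cells are rare chemosensory cells of the intestinal epithelium with a brush of long microvilli. Receptors on their surface sense metabolites of parasites and microbes and signal through a taste-like cascade that ends in the opening of a cation channel. Tuft cells are the known intestinal source of interleukin 25, which starts a type 2 response of innate lymphoid cells, and they also release leukotrienes, prostaglandins and acetylcholine.

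Of the 9 tuft cell genes 5 were tested, of which 2 fell in int 3 and 0 rose. Among all 12525 tested genes 6.70% fell and 8.64% rose. Rgs13, Trpm5 and Sh2d6 entered the test through their int 2 libraries alone, so these shares cannot be compared directly. Without a filter on level Rgs13 passed and Trpm5 did not (limma adjusted p = 0.0106 and 0.0515). Rgs13 fell to 0.435 ± 0.295 FPKM in int 3, against 2.74 ± 0.149 in int 2 (SD, n = 3 libraries each), and Trpm5 fell to 0.332 ± 0.311, against 1.31 ± 0.125. FPKM counts fragments per kilobase of gene, scaled to a fixed library size. Gnat3, Pou2f3, Sh2d6 and Sucnr1 stood at 7.30% to 36.6% of their int 2 means. Dclk1, Avil and Chat, which neurons also express, stood at 70.9%, 83.3% and 94.6% of theirs. All 9 genes were lowest in int 3-3, as were 29.7% of the 18067 genes at a mean of 0.05 FPKM or more.

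Pou2f3, the POU-domain factor that tuft cells need to form, is known to bind the octamer ATGCAAAT or its reverse complement ATTTGCAT. The 250 bases before a RefSeq transcript start are shown for Rgs13 and Trpm5, the genes that fell, and for Sucnr1 and Avil, which hold the octamer or its first 7 bases. They are RefSeq sequences of GRCm38.p6, printed 5′ to 3′ on the strand of the gene. The Avil window lies inside the annotated gene, before an internal start. Capitals mark the octamer or ATGCAAA, with its reverse complement TTTGCAT, and every octamer also counts as a match to the shorter word.
Rgs13, chr1:144177373-144177622 (- strand): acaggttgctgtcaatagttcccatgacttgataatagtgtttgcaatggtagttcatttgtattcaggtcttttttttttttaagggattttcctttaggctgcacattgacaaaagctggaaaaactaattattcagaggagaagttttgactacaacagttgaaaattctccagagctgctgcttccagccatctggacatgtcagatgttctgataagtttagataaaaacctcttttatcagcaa
Trpm5, chr7:143094643-143094892 (- strand): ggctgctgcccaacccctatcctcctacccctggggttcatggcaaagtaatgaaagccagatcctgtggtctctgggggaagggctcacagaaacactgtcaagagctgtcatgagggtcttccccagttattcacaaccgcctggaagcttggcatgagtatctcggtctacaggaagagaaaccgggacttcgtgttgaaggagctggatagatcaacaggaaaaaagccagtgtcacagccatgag
Sucnr1, chr3:60081619-60081868 (+ strand): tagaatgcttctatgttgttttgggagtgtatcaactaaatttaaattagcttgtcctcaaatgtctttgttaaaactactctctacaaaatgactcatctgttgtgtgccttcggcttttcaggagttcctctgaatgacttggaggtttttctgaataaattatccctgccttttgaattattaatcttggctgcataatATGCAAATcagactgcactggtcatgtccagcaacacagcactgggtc
Avil, chr10:127000459-127000708 (+ strand): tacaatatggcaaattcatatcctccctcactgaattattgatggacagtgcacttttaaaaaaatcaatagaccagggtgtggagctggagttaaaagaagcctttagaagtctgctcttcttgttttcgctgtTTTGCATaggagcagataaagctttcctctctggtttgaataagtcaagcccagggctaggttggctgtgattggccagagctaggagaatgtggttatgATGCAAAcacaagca
The promoter table held 9 starts of 8 of the 9 genes, with 2 starts for Dclk1. Sucnr1 had the full octamer, beginning 48 bases before its start, and it was the only 1 of these 9 starts with it. Of all 32851 promoter windows of this length 1.6% held the octamer on either strand. Avil had the shorter word in both orientations, and Sucnr1 and Avil were the 2 starts with it, against 4.12% of all windows. A match is a run of letters in this window and shows no binding.

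The libraries were of even depth, with 34021820 to 35060599 fragments in int 3 and 34162484 to 34447586 in int 2, as recovered from the steps in the FPKM values. They were not evenly spread. The SD of the log2 difference between 2 libraries over the 12525 tested genes was 0.271 to 0.513 within int 3 and 0.110 to 0.115 within int 2. Int 3-2 and int 3-3 lay farthest apart, and int 3-1 lay between them for 97.7% of the 1116 tested genes over 2-fold apart. Hoxb13, expressed in the distal hindgut, had 146, 16.4 and 267 FPKM across int 3-1, int 3-2 and int 3-3, against 285 to 288 FPKM in int 2. Int 3-1 was here near midway between int 3-2 and int 3-3. Whether it is independent of them is not given in the sources used here. The tests take 3 independent libraries a group, and p-values would be too small if that does not hold. Epithelial genes such as Lgals4, a galectin of intestinal epithelium, stood at 2574 to 4072 FPKM in int 3 and 3261 to 3277 FPKM in int 2. In such bulk tissue, fewer tuft cells and less RNA per tuft cell cannot be told apart.

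Of the 9 genes, 5 reached the filter of 1 FPKM in at least 3 libraries (Rgs13, Dclk1, Trpm5, Avil and Sh2d6), and 4 did not (Pou2f3, Gnat3, Sucnr1 and Chat). Rgs13, Trpm5 and Sh2d6 reached it through their 3 int 2 libraries alone, so that passing already required int 2 to be high. In limma's test on log2(FPKM + 1), 2 of the 5 fell, Rgs13 and Trpm5, and 0 rose. At an unadjusted limma p under 0.05 the numbers were 3 and 0, beside 4018 of the 12525 tested genes in either direction. Of all 12525 tested genes 15.3% changed, with 6.70% of the tested genes lower and 8.64% higher. For 7 of the 9 genes every int 3 library lay below every int 2 library, and for Avil and Chat the groups overlapped. The separation of Sucnr1 rests on 1 fragment in int 3-2 against 2 in int 2-1. That separation held for 17.9% of the 12525 tested genes and for 16.1% of all 18067 genes at a mean of 0.05 FPKM or more, which include these 9. Int 3-3 was the lowest of the 6 libraries for 9 of 9 genes, against 29.7% of those 18067. Int 3-2 was the highest int 3 library for 8 of 9, the exception being Gnat3, against 54.6%. For Sucnr1 this rests on 1 fragment each in int 3-1 and int 3-2, which cannot be ranked. The lowest place of int 3-3 rests on 0 fragments for Gnat3 and Sucnr1, against 2 and 1 in int 3-2.

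**Figure D1:**
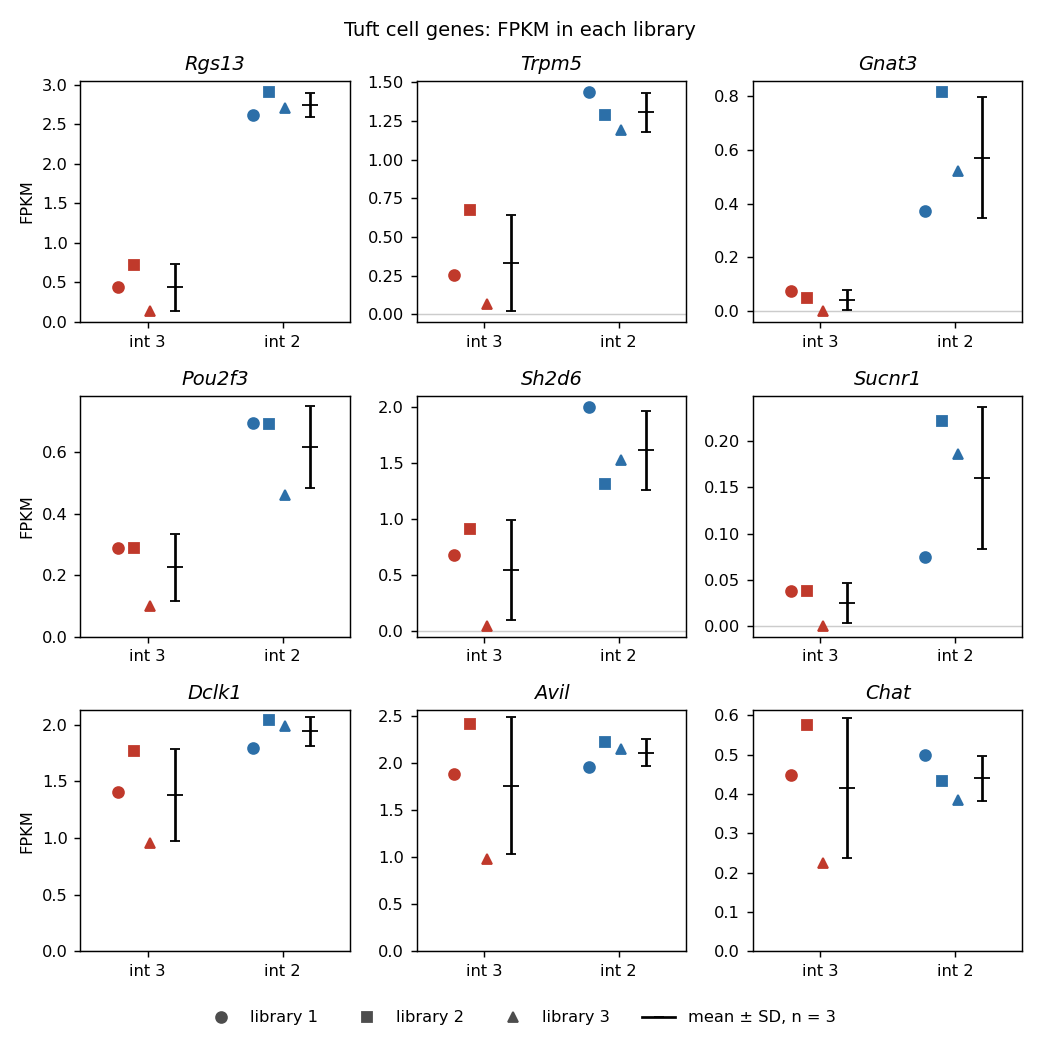
FPKM (vertical axis, linear, scaled for each gene) of the 9 tuft cell genes in int 3 (red, left) and int 2 (blue, right). Each symbol is 1 library and the black bar is the mean ± SD of 3 libraries. The int 3 symbols lie below all int 2 symbols for 7 genes, and the groups overlap for Avil and Chat.

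Rgs13 encodes a regulator of G-protein signalling and was the most abundant of the 9 per length in int 2. It stood at 0.445, 0.724 and 0.135 FPKM across int 3-1, int 3-2 and int 3-3, against 2.62, 2.91 and 2.71 FPKM in int 2-1, int 2-2 and int 2-3. Every int 3 library was under 1 FPKM and every int 2 library far above it, so the groups did not overlap. The log2 change was -1.40 (SE 0.16, limma adjusted p = 0.0033). Rgs13 reached the filter through int 2 alone, and without a filter limma gave adjusted p = 0.0106. Behind these levels were 45, 73 and 14 fragments in int 3 and 266, 297 and 274 in int 2. Rgs13 fell in 16 of 17 alternative analyses, with adjusted p of 0.00058 to 0.0281. The exception was int 2 averaged to 1 sample, where it had adjusted p = 0.287 and limma called 0 of 12525 genes, with 1130 at an unadjusted p under 0.05.

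Trpm5, the calcium-activated cation channel at the end of the taste cascade, ranked the int 3 libraries in the same order, though not those of int 2. Its levels were 0.253, 0.676 and 0.0682 FPKM across int 3-1, int 3-2 and int 3-3, against 1.44, 1.29 and 1.19 FPKM in int 2-1, int 2-2 and int 2-3. Int 3-3 held 13 fragments and int 3-2 held 125, so that the int 3 libraries differed among themselves more than the int 2 libraries did. Trpm5 also reached the filter through int 2 alone. The log2 change was -0.82 (SE 0.17, limma adjusted p = 0.0256). That call was lost in 8 of 17 alternatives, at adjusted p of 0.0915 to 0.111 without int 2-1, int 2-2, int 2-3 or int 3-1, 0.0515 without a filter, 0.0574 with a pseudocount of 0.1 and 0.0534 with the replicate number as a block. With int 2 averaged to 1 sample it was 0.551.

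Gnat3, the gustducin alpha subunit that couples taste receptors to the cascade, was scarce in both groups. Its levels were 0.0749, 0.0501 and 0 FPKM across int 3-1, int 3-2 and int 3-3, from 3, 2 and 0 fragments. In int 2-1, int 2-2 and int 2-3 they were 0.373, 0.816 and 0.524 FPKM, from 15, 33 and 21 fragments. The groups lay apart, with a summed fragment ratio of 0.0722 (exact conditional binomial interval 0.0227 to 0.177, 95%, counting error only). A count of 0 in int 3-3 allows up to 3 fragments, or 0.0729 FPKM. The gene was under the filter, and it passed the same limma test run without a filter (adjusted p = 0.0343) and voom on whole fragments (adjusted p = 0.0323), an alternative added after the data were seen. The share of genes called lower there was 3.11% without a filter and 4.48% with voom.

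Pou2f3 itself stood at 0.288 and 0.289 FPKM in int 3-1 and int 3-2 and at 0.1002 FPKM in int 3-3, against 0.697, 0.694 and 0.463 FPKM in int 2-1, int 2-2 and int 2-3. The groups did not overlap, and int 3-3 again was lowest, with 10 fragments. The gene was under the filter. Without a filter limma gave adjusted p = 0.0651 and voom on whole fragments 0.0714, while a filter at 0.1 FPKM gave 0.0422.

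Sh2d6 encodes a small adaptor with an SH2 domain whose transcript marks tuft cells. It stood at 0.680, 0.914 and 0.0473 FPKM across int 3-1, int 3-2 and int 3-3, against 2.01, 1.31 and 1.53 FPKM in int 2-1, int 2-2 and int 2-3. With 56, 75 and 4 fragments the int 3 libraries were very uneven, yet all lay below int 2. The gene reached the filter through int 2 alone. Its log2 change of -0.79 did not pass (SE 0.24, limma adjusted p = 0.0727), and without int 3-2 or int 3-3 it did (0.0249 and 0.0238).

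Sucnr1 is the receptor through which tuft cells sense succinate, a product of protists and bacteria. Only 1, 1 and 0 fragments were found across int 3-1, int 3-2 and int 3-3, against 2, 6 and 5 in int 2-1, int 2-2 and int 2-3. It had the lowest mean level of the 9 genes in both groups. The FPKM values were 0.0373, 0.0374 and 0 in int 3 and 0.0743, 0.222 and 0.186 in int 2. The ratio of summed fragments was 0.153 (exact conditional binomial interval 0.0168 to 0.677, counting error only). At this depth single libraries could not be ranked, and without a filter limma gave adjusted p = 0.111.

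Dclk1 encodes a microtubule-associated kinase that is the usual histological marker of mouse tuft cells and is also made by neurons. Its levels were 1.40, 1.77 and 0.961 FPKM across int 3-1, int 3-2 and int 3-3, against 1.80, 2.04 and 1.99 FPKM in int 2-1, int 2-2 and int 2-3. The groups only just failed to overlap, since int 3-2 with 832 fragments stood at 98.5% of int 2-1 with 851 (exact interval 89.4% to 109%, counting error only). The log2 change of -0.32 did not pass (SE 0.13, limma adjusted p = 0.159). It passed in 1 of 17 alternatives, without int 3-2 (adjusted p = 0.0354). The table gives 1 value a gene, so the transcripts from the 2 Dclk1 starts were not separated. Dclk1 overlaps Gm9831 and Gm31443 in the RefSeq annotation of GRCm38.p6, and fragments they share could count for either.

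Avil, advillin, is an actin-binding protein of the tuft cell brush and of peripheral sensory neurons. It stood at 1.88, 2.41 and 0.976 FPKM across int 3-1, int 3-2 and int 3-3, against 1.95, 2.22 and 2.15 FPKM in int 2-1, int 2-2 and int 2-3. Int 3-2 was the highest of the 6 libraries and int 3-3 the lowest, so the groups overlapped. The log2 change was -0.21 (SE 0.20, limma adjusted p = 0.5004), and it passed in 0 of 17 alternatives. Without int 3-3 the change was 0.01 (limma adjusted p = 0.922).

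Chat makes acetylcholine in tuft cells and in cholinergic neurons. It stood at 0.448, 0.575 and 0.223 FPKM across int 3-1, int 3-2 and int 3-3, against 0.498, 0.434 and 0.385 FPKM in int 2-1, int 2-2 and int 2-3. The groups overlapped, and the ratio of summed fragments was 0.942 (exact conditional binomial interval 0.728 to 1.22, counting error only). Slc18a3 lies within Chat in the RefSeq annotation of GRCm38.p6, and how fragments shared by the genes were counted is not given in the sources used here.

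**Figure D2:**
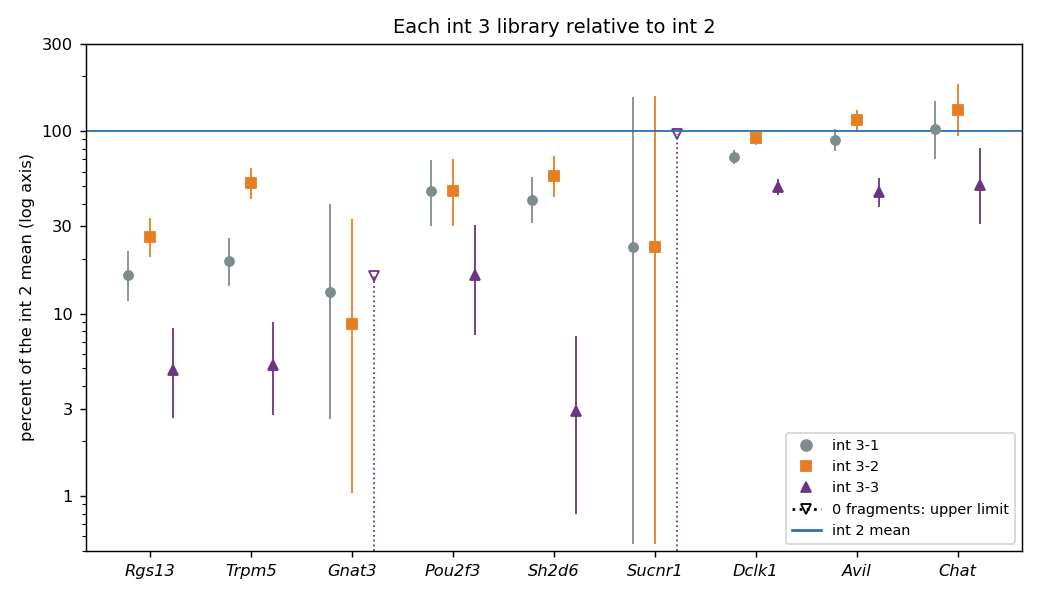
Level of each tuft cell gene in int 3-1 (grey circles), int 3-2 (orange squares) and int 3-3 (purple triangles) as a percent of the int 2 mean (blue line), on a log axis. Bars are exact 95% intervals of the fragment counts, covering counting error only and ending at the axis where they run lower, and open triangles are the upper limits for 0 fragments. Rgs13 ranged from 4.91% to 26.4%, whereas Chat ranged from 50.8% to 131%.

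Relative to the int 2 mean the 9 genes ran from near 0 to above it. In int 3-3 Sh2d6 was at 2.93%, Rgs13 at 4.91%, Trpm5 at 5.22% and Pou2f3 at 16.2%, whereas Dclk1, Avil and Chat were at 49.4%, 46.3% and 50.8%. In int 3-2 Rgs13 was at 26.4%, Pou2f3 at 46.8%, Trpm5 at 51.7% and Sh2d6 at 56.6%, and Dclk1, Avil and Chat were at 91.1%, 114% and 131%. Int 3-3 thus stood well under int 3-2, at 5.18% for Sh2d6, 10.1% for Trpm5, 18.6% for Rgs13, 34.7% for Pou2f3 and 38.8% to 54.2% for Chat, Avil and Dclk1. The median over tested genes was 90.7%. The summed level of Rgs13, Trpm5, Pou2f3, Sh2d6, Gnat3 and Sucnr1 was 1.78, 2.69 and 0.350 FPKM across int 3-1, int 3-2 and int 3-3, against 7.21, 7.24 and 6.60 FPKM in int 2. That of Dclk1, Avil and Chat was 3.74, 4.76 and 2.16 FPKM in int 3, against 4.25, 4.70 and 4.53 FPKM in int 2. These 6 and 3 genes were divided after their values were seen, so the sums are a description.

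The order of the levels per length also differed. In int 3 it ran Avil, Dclk1, Sh2d6, Rgs13, Chat, Trpm5, Pou2f3, Gnat3 and Sucnr1, and in int 2 it ran Rgs13, Avil, Dclk1, Sh2d6, Trpm5, Pou2f3, Gnat3, Chat and Sucnr1. Ranges of neighbours in this order overlapped in int 3 except between Dclk1 and Sh2d6 and between Pou2f3 and Gnat3. In int 2 they overlapped except between Rgs13 and Avil, between Trpm5 and Pou2f3, and between Chat and Sucnr1. The ratio of Dclk1 to Rgs13 was 3.16, 2.45 and 7.13 across int 3-1, int 3-2 and int 3-3, against 0.687, 0.702 and 0.736 in int 2. The groups lay apart, with a two-sided exact permutation p = 0.1, the smallest that 3 against 3 libraries can give (0.233 adjusted over 7 ratios). Avil to Rgs13 was 4.23, 3.33 and 7.24 in int 3, against 0.746, 0.764 and 0.793 in int 2, with the same exact p. By contrast Trpm5 to Rgs13 was 0.569, 0.933 and 0.506 in int 3, against 0.549, 0.444 and 0.440 in int 2, so these groups overlapped (exact permutation p = 0.2, 0.28 adjusted). The ratios were chosen after the values were seen.

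The spread of fragment counts within a group differed from gene to gene. Their chi-square per degree of freedom, which is 1 on average for pure sampling of fragments, was 0.703 for Chat to 6.50 for Sh2d6 there. In int 3 it was 0.514 for Sucnr1 to 57.2 for Dclk1.

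Other genes of the taste cascade were counted from a list of 13, of which 4 were tested. Plcg2 and Itpr2, a phospholipase and a calcium release channel, fell, 0 rose, and Gnai2 and Itpr3 did not pass, beside 6.70% called lower among all tested genes. Plcg2 had a log2 change of -1.01 and Itpr2 of -0.45 (limma adjusted p = 0.0017 and 0.016), and 1 to 2 fell and 0 to 1 rose on leaving out single libraries. The list median was -0.20, against 0.03 over all tested genes. Plcg2 is also a signalling enzyme of B cells. Among the genes under the filter Plcb2, the phospholipase of taste cells, held 103, 95 and 126 fragments across int 3-1, int 3-2 and int 3-3, against 262, 248 and 281 in int 2. Gng13, a gamma subunit that partners gustducin, held 0, 10 and 0 fragments in int 3, against 17, 9 and 14 in int 2. Gnb3, the beta subunit of the cascade, lay the other way, with 11, 27 and 11 fragments in int 3 and 4, 10 and 8 in int 2. Plcb2 did not overlap between the groups, whereas Gng13 did through int 3-2. Plcb2 was not lowest in int 3-3. The taste receptor genes Tas1r1, Tas2r108 and Tas2r138 were at or near 0 in all libraries, and Vmn2r26 was listed at 0.

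Regulators of the tuft cell lineage and of crypt progenitors fell in 4 of 8 tested genes, 0 rose, and 4 did not pass (6.70% background for lower, 8.64% for higher). The list median was -0.49, and 3 to 5 fell and 0 to 2 rose with 1 library left out. Ascl2, a stem cell factor of the crypt base, fell to 3.63 ± 0.274 FPKM in int 3, against 8.54 ± 0.640 FPKM in int 2 (SD, n = 3 each, limma adjusted p = 0.00097). Spib, a factor of B cells, M cells and tuft cells, fell to 21.6% to 37.1% of its int 2 mean, and Mycl, a Myc family factor, to 63.9% to 68.3% (limma adjusted p = 0.0020 and 0.0050). Pou2af2, a coactivator of Pou2f3, also fell (log2 change -0.60, limma adjusted p = 0.0441). It stood at 27.9%, 66.4% and 20.4% of its int 2 mean across int 3-1, int 3-2 and int 3-3. Pou2af2 reached the filter through int 2 alone. Pou2af3, a related coactivator gene, stood at 53.8%, 76.3% and 40.5% (limma adjusted p = 0.0624), and Gfi1b, a repressor found in tuft cells, at 7, 8 and 0 fragments in int 3, against 16, 7 and 13 in int 2.

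Enzymes and mediators that tuft cells release or use moved in both directions. Of 8 tested, 3 rose, 2 fell and 3 did not pass (8.64% higher and 6.70% lower in the background), and the list median was 0.16. Alox5 and Ltc4s, enzymes of leukotriene synthesis, fell by 0.85 and 0.80 on the log2 scale (limma adjusted p = 0.011 and 0.015). Alox5 stood at 18.4%, 44.7% and 16.1% of its int 2 mean and Ltc4s at 42.8%, 61.4% and 39.7% across int 3-1, int 3-2 and int 3-3. Alox5 reached the filter through int 2 alone. Pla2g4a, a phospholipase that frees arachidonic acid, rose by 0.28, Ptgs1, a prostaglandin synthase of many cell types, by 0.51, and Slc18a3, the vesicular acetylcholine transporter, by 0.68 (limma adjusted p = 0.015, 0.040 and 0.041). Leaving out single libraries gave 0 to 4 higher and 0 to 2 lower. Il25, the tuft cell cytokine, was at or near 0, with 0, 0 and 0 fragments in int 3 and 1, 0 and 1 in int 2.

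A broader list of transcripts enriched in tuft cells but not confined to them held 21 tested genes, of which 4 rose, 5 fell and 12 did not pass (8.64% higher and 6.70% lower in the background), with a median of -0.07. Inpp5j, a phosphoinositide phosphatase, fell by 0.50, Fam221a by 0.40 and Hepacam2, an adhesion protein of secretory cells, by 0.37 (limma adjusted p = 0.0051, 0.014 and 0.025). Ildr1, a tricellular junction protein, rose by 0.31, Rgs2 by 0.78 and the transcription factor gene Runx1 by 0.30 (limma adjusted p = 0.016, 0.021 and 0.037). Single libraries left out gave 0 to 7 higher and 1 to 6 lower. Of 13 tested genes that tuft cells share with leukocytes 8 fell, 0 rose and 5 did not pass (6.70% background for lower), and the median was -0.62. Between 4 and 8 fell, and 0 to 1 rose, when a single library was dropped. Pik3cg and Alox5, among the 8 that fell, reached the filter through int 2 alone. Gimap1, Plcg2 and the phosphatase gene Ptpn6 fell by 0.72, 1.01 and 1.13 (limma adjusted p = 0.00089, 0.0017 and 0.0029). Its library medians came to -0.65, -0.60 and -0.51 across int 3-1, int 3-2 and int 3-3, so int 3-3 was not the lowest here.

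**Figure D3:**
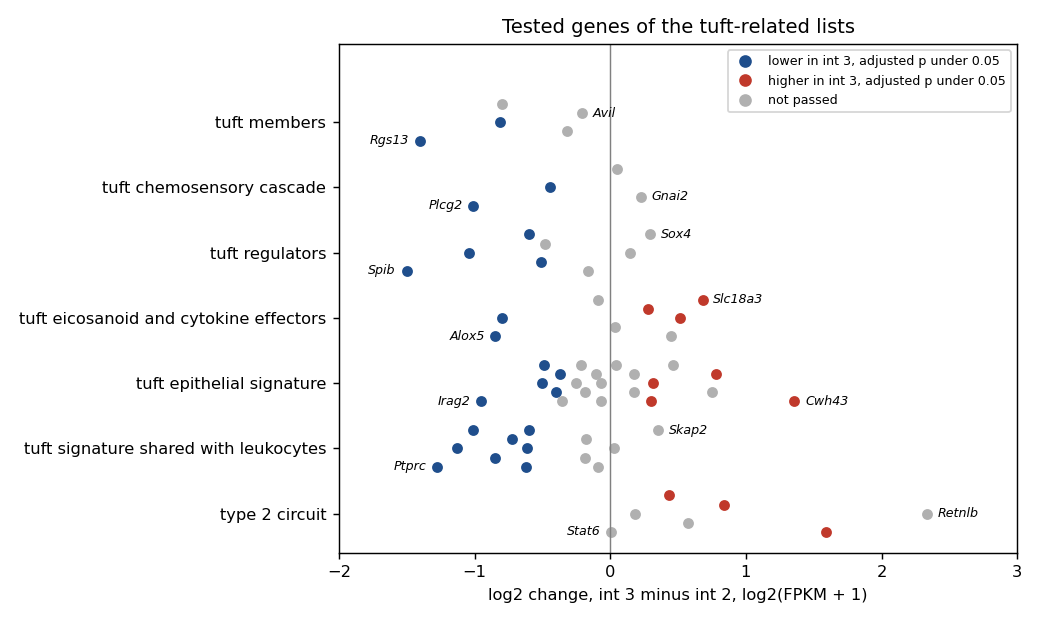
Log2 change, int 3 minus int 2, of each tested gene in 7 lists, with genes that fell in blue, rose in red and did not pass in grey. Vertical scatter within a row has no meaning, and the first and last gene of each row are named. Rgs13 at -1.40 is the lowest of the tuft cell genes, and the broader signature lies on both sides of 0 with a median of -0.07.

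Genes of the type 2 circuit, to which tuft cells belong, rose in 3 of 7 tested genes, 0 fell and 4 did not pass (8.64% background for higher), and the median was 0.58. Il13ra1 and Il4ra, which form the receptor for interleukins 4 and 13, rose by 0.43 and 0.84, and Il1rl1, the receptor for interleukin 33, by 1.59 (limma adjusted p = 0.0040, 0.011 and 0.020). Il1rl1 reached the filter through int 3 alone. Between 1 and 6 rose when a single library was dropped. Il13 had 0 fragments in each int 3 library and 0, 3 and 1 in int 2. Il17rb, the interleukin 25 receptor chain, held 49, 34 and 37 fragments in int 3 and 90, 66 and 93 in int 2. Retnlb, a goblet cell protein induced by interleukin 13, stood at 379, 771 and 54.9 FPKM across int 3-1, int 3-2 and int 3-3, against 48.0 to 50.3 FPKM in int 2, and did not pass (limma adjusted p = 0.135). Its lowest int 3 library was int 3-3, as for the tuft cell genes.

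Epithelial markers mostly did not pass. Of 13 epithelial markers 1 rose, 0 fell and 12 did not pass in limma's test, near the background of 8.64% higher and 6.70% lower, with a median of 0.03. Leaving out single libraries gave 0 to 3 higher and 0 to 1 lower. The marker that rose was Elf3, an epithelial transcription factor (0.61, limma adjusted p = 0.038). Epcam stood at 92.7%, 86.4% and 99.3% of its int 2 mean across int 3-1, int 3-2 and int 3-3, and the summed level of the list was 7553 to 10218 FPKM in int 3 and 8664 to 8676 FPKM in int 2. With every library scaled to these markers the log2 changes of Rgs13 and Trpm5 were -1.44 and -0.84 (limma adjusted p = 0.0030 and 0.0214). Int 3-3, where tuft cell genes were lowest, had the highest epithelial sum, most of it Lgals4, Krt8 and Krt19. Cdx2, Krt18 and Krt20 were instead lowest of the 6 libraries in int 3-3. The scaling factor from these markers was 1.04, 1.02 and 1.01 across int 3-1, int 3-2 and int 3-3, against 0.972 to 0.981 in int 2. Factors this close to each other could change the levels of Rgs13 and Trpm5 only a little. What part epithelial content has in the tuft cell gene levels was not tested. Enteroendocrine genes, markers of another rare epithelial cell type, rose in 1 of 10, fell in 1 and did not pass in 8, near the background of 8.64% and 6.70%, with a median of -0.21. Dropping single libraries gave 0 to 2 higher and 1 to 3 lower. Absorptive colonocyte genes fell in 3 of 8 tested, rose in 1 and did not pass in 4 (6.70% background for lower, 8.64% for higher), with a median of -0.67. With single libraries dropped 0 to 4 of them fell and 0 to 2 rose. Of 9 goblet cell genes 0 fell and 0 rose (6.70% and 8.64% in the background), with a median of 0.62. On leaving out single libraries 0 to 4 of them rose and 0 to 1 fell. Their summed level was 4478 to 5447 FPKM in int 3 and 2471 to 2501 FPKM in int 2.

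**Figure D4:**
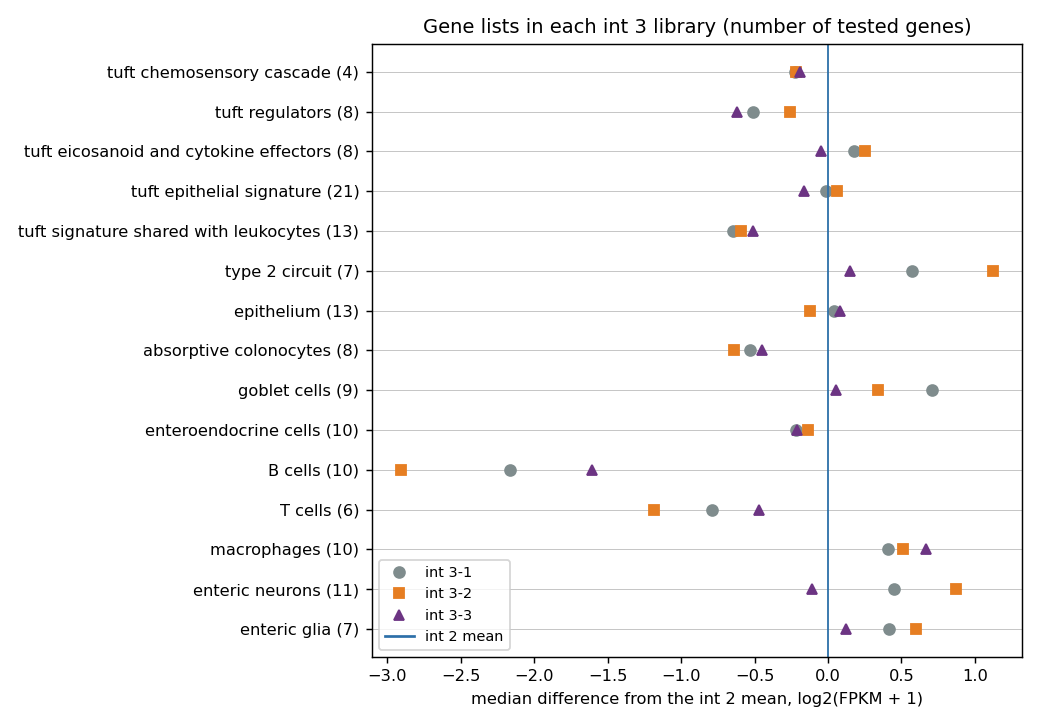
Median difference from the int 2 mean in log2(FPKM + 1) (horizontal axis) of the tested genes of 15 lists in int 3-1 (grey circles), int 3-2 (orange squares) and int 3-3 (purple triangles), with the number of tested genes in brackets. B cell genes were lowest in int 3-2 at -2.90, and enteric neuron genes were highest there at 0.87.

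Several of the 9 genes are also made by other cells of the gut wall. Germinal centre B cells and mast cells express Rgs13. All 10 B cell markers fell (6.70% background for lower), and Fcer2a reached the filter through int 2 alone. The summed level of these markers was 28.3, 5.27 and 46.5 FPKM across int 3-1, int 3-2 and int 3-3, against 166 to 173 FPKM in int 2. Between 3 and 10 of them fell when a single library was dropped. The library order was the reverse of that of Rgs13, which was highest in int 3-2 and lowest in int 3-3. The germinal centre list fell in 1 of 5 tested genes, Rgs13 itself, and its summed level was 16.3 to 37.8 FPKM in int 3 and 15.2 to 15.8 FPKM in int 2. That sum lay above int 2 through 1 gene of the list alone, so it does not give the direction of the others. Among the genes of this list under the filter, Gcsam held 17, 5 and 22 fragments in int 3, against 60, 51 and 56 in int 2. What part of the fall of Rgs13 goes with B cells was not tested. Neither of the 2 tested mast cell genes passed with limma or with voom on whole fragments. The sum of that list was 15.8 to 17.3 FPKM in int 3 and 13.9 to 14.1 FPKM in int 2. That sum was mostly Kit, which other cells also express. Under the filter, the mast cell protease gene Mcpt1 held 55, 25 and 72 fragments across int 3-1, int 3-2 and int 3-3, against 16, 9 and 5 in int 2. The histamine-forming enzyme gene Hdc held 49, 47 and 26 fragments in int 3, against 14, 16 and 9 in int 2. For both, every int 3 library lay above every int 2 library, and the share of all genes that do so is not given here. Mcpt2 held 14, 7 and 54 fragments in int 3 and 4, 7 and 2 in int 2, and Cpa3 held 3, 5 and 10 in int 3 and 5, 2 and 1 in int 2, so these groups met or overlapped. What part mast cells have in the levels of Rgs13 was not tested.

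Enteric neurons express Chat and Dclk1. Of 11 tested neuron genes 1 rose, Slc18a3, 0 fell and 10 did not pass, near the background of 8.64% higher, with 0 to 10 higher and 0 to 1 lower when 1 library was left out. The neuron medians came to 0.45, 0.87 and -0.11 across int 3-1, int 3-2 and int 3-3, and its sums were 166 to 228 FPKM in int 3 and 179 to 185 FPKM in int 2. Elavl4, a neuronal RNA-binding protein gene, stood at 150%, 214% and 87.4% of its int 2 mean in those libraries, in the order of Dclk1, Avil and Chat. Vip alone in this list ran in the reverse order, at 62.6%, 35.6% and 86.8%. Slc18a3 and Slc5a7, the vesicle transporter and choline transporter that cholinergic neurons use beside Chat, stood at 189%, 267% and 147% and at 197%, 252% and 142%. Enteric glia genes rose in 2 of 7, Gfap (1.45) and Foxd3 (0.39), and 0 fell (limma adjusted p = 0.0044 and 0.023). The background was 8.64% higher, both genes reached the filter through int 3 alone, and 1 to 5 rose when a single library was dropped. Their sum was 45.7 to 47.1 FPKM in int 3 and 37.5 to 38.7 FPKM in int 2. What part neuronal RNA has in the levels of Dclk1, Avil and Chat was not tested.

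The genes whose profiles over the 6 libraries lay closest were found by the root mean square difference of centred log2(FPKM + 1) among tested genes. Closest to Rgs13 were Gm43305 (0.0831), the somatostatin receptor gene Sstr1 (0.118) and the annexin gene Anxa13 (0.126). Sstr1 stood at 1.89, 2.14 and 1.62 FPKM across int 3-1, int 3-2 and int 3-3, against 7.25, 7.55 and 7.09 FPKM in int 2. Closest to Trpm5 were St6galnac2 (0.0665), Derl3 (0.0679) and Etv4 (0.0718), and to Sh2d6 Rgcc (0.152), Tm4sf5 (0.155) and Ccn2 (0.156). For Dclk1 they were Gm6988 (0.0367), Bcl2 (0.0412) and Fam193b (0.0412), and for Avil Tmem44 (0.0520), Mapk8ip3 (0.0537) and Wnk4 (0.0545). None of the 15 was another of the 9 genes. Only the 5 that passed the filter could be matched, and the measure also depends on the size of a change. It therefore does not show whether the 9 genes vary together.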

How the data were processed

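TRIzol extraction and the VAHTS Universal V10 kit were used for the 6 large intestine samples, per the labels' protocols. FPKM values for all genes were deposited by the authors in 1 table. Per the submitters' processing notes they refer to GRCm39. Columns were matched to samples by title. Aligner, counter, annotation and strand handling are not given in the sources used here. Whole fragments were recovered from the FPKM steps for 98.8% of tested genes (relative tolerance 1e-06) and all 9 tuft cell genes, with totals from the requirement that lengths be whole bases. Genes at 1 FPKM in at least 3 libraries entered limma 3.58.1 (R 4.3.3) as log2(FPKM + 1) with a trended eBayes step (two-sided, Benjamini-Hochberg over 12525 genes, threshold 0.05), and the fit was tested on simulated data. This scale understates changes of low genes. In the text rose and fell mean passing this threshold. Intervals are exact at 95% and, like floors of 3 fragments, cover counting error only. The genes and lists were chosen with earlier results of these data known. Named are the 9 genes, up to 3 called genes per list and direction with the smallest p, and nearest profiles, and any other gene was chosen after its values were seen. Sequences are from RefSeq, GRCm38.p6, whose coordinates were not mixed with the table. Python 3.11.15 and scipy 1.17.1 did the rest. One gene of the germinal centre list is not reported here.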

Additional observations from a re-analysis of the deposited data

How the results depend on the processing

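Of the 12525 tested genes limma called 1921. The count was 889 with the replicate number as a block, 0 with int 2 averaged to 1 sample (1130 at an unadjusted p under 0.05), and 615 to 4913 with 1 library left out. Without int 2-1, int 2-2, int 2-3 and int 3-1 it was 635, 615, 637 and 642, and without int 3-3 it was 4913. It stayed within 1.5 times of 1921 without int 3-2 and under the 8 other pseudocounts, filters, scalings, weights and tests tried, and in a voom fit of genes with 10 or more fragments that was added after the data were seen (1917). Of the tuft cell genes 2 fell. That number was 1 with a pseudocount of 0.1 and with the replicate block, 4 with a filter at 0.1 FPKM, 0 with int 2 averaged to 1 sample (2 at an unadjusted p under 0.05) and 1 to 4 with 1 library left out, and 0 rose in any alternative. Same-numbered libraries did not deviate together (correlations of -0.0147, 0.00408 and -0.0215), so the block only pairs numbers. The log2 change of Rgs13 was below 0 in all 17 alternatives. Depth limits Gnat3 and Sucnr1, at 5 and 2 fragments over int 3.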
